A study of Mus musculus with 6 samples.

Results

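The genes described here make and modify the sugar chains of glycoproteins, glycolipids and proteoglycans. They were taken by symbol from a table of the mouse retinal pigment epithelium (RPE), the pigmented cell layer behind the photoreceptors. The families taken were the carbohydrate sulfotransferases (Chst), polypeptide GalNAc transferases (Galnt), fucosyltransferases (Fut), sialyltransferases (St3gal, St6gal, St8sia), galactosyl- and N-acetylgalactosaminyltransferases (B3gal, B4gal), N-acetylglucosaminyltransferases (B3gnt, Mgat, Gcnt), and the xylosyl-, heparan polymerase and heparan sulfotransferase families (Xylt, Ext, Extl, Ndst, Hs2st, Hs3st, Hs6st). Fuom, the fucose mutarotase gene, was added by name. The rule gave 85 genes of 14002 distinct symbols in the table. The families were chosen by the values of this same comparison, since Fuom and Chst5 ranked 1 and 5 of 11342 genes by p-value between the times described below. The differences between the times are therefore given as a description, and nothing is supported with them.

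The study sampled RPE-enriched tissue of male C57BL/6J mice aged 8 to 10 weeks at 2 circadian times, CT1 and CT23. Circadian time counts hours from subjective dawn, so CT1 lies 2 h after CT23. There were 3 libraries at CT1 and 3 at CT23, all made from pools of 2 RPE samples. All mice were of this inbred strain, and the labels name no treatment or engineered allele. Whether the pooled samples of different libraries came from separate mice is not stated, so p-values measure only the spread between these libraries, which may be partly technical. Each library was made with a kit that reads the 3′ ends of transcripts, and values are in CPM, which sets the reads of each gene against its library's total. A 3′ end kit does not give longer transcripts more reads, so CPM is used here, not divided by length, to compare levels between genes.

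Glycan chains are built in the endoplasmic reticulum and Golgi apparatus by transferases that each add a single kind of sugar from an activated donor. O-glycans begin with N-acetylgalactosamine placed on serine or threonine by the Galnt enzymes. N-glycans are branched by the Mgat enzymes, and sialic acid or fucose commonly caps the ends of both kinds. Heparan, chondroitin and keratan sulfate are long chains of proteoglycans that sulfotransferases decorate. Such chains fill the matrix between the RPE and the photoreceptors, Bruch's membrane beneath the RPE, and the cornea and sclera.

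Library totals lay between 12612330 and 13651486 reads, of which the listed genes took 12.7% to 32.3%. A single read was worth 0.0733 to 0.0793 CPM, so 0 reads would allow a level of up to 0.220 to 0.238 CPM (3 reads, counting error only). Crystallin reads, which mark lens, made up 1.84% to 12.8% of the listed reads in the CT1 libraries and 61.2%, 58.7% and 16.4% in CT23 replicates 1, 2 and 3. CT23 replicates 1 and 2 thus stood apart from the other libraries. The RPE marker genes were present in all libraries, with sums of 1323 to 1744 CPM at CT1 and 1073 to 1370 CPM at CT23. Markers of other cells were present too, so that fewer cells of a type and less RNA per cell cannot be told apart. Rod photoreceptor markers were lower at CT1 in 18 of 18 genes, with sums of 853 to 921 CPM at CT1 and 1258 to 1519 CPM at CT23. Ocular surface epithelium markers (keratins and others) were higher in 11 of 12 genes but their sums overlapped, at 1277 to 2043 CPM at CT1 and 746 to 1559 CPM at CT23. Fibroblast and sclera markers were higher in 10 of 12 genes, with sums of 1011 to 1874 CPM at CT1 and 770 to 919 CPM at CT23. Over all 11342 genes in the fit described below, 47.8% were higher at CT1 and 52.2% lower. All marker sums given here use the full totals, crystallin reads included, and were not rescaled without them. Skeletal muscle markers had sums of 39.6 to 163 CPM at CT1 and 8.80 to 36.8 CPM at CT23. Goblet cells, which make mucin glycans, were judged from Agr2, the 1 measured gene of a list of 5. Its level was 0.951 to 1.89 CPM at CT1 and 0.538 to 1.39 CPM at CT23. The other listed genes, Muc5ac, Muc5b, Spdef and Tff1, were not among the measured genes.

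Promoters are shown for Fuom and Chst5, which had the highest ratios of CT1 to CT23 among the members, and for Chst3, which had the lowest. B3galt2, a member lower at CT1, is shown because the stretch before its RefSeq start held an E-box, the letters CACGTG to which the CLOCK and BMAL1 proteins bind in the circadian oscillator. Each run gives the 250 bases before a RefSeq start site (build GRCm38.p6), 5′ to 3′ on the strand of the gene, with the E-box in capitals. For Chst5 and B3galt2 the GENCODE start given further on lies inside the stretch, and for B3galt2 it lies before the E-box, which by that annotation is inside the transcript. The stretches lie at chr7:140102442-140102691, minus strand for Fuom, chr8:111910200-111910449, minus strand for Chst5, chr10:60219261-60219510, minus strand for Chst3 and chr1:143640447-143640696, plus strand for B3galt2.
Fuom: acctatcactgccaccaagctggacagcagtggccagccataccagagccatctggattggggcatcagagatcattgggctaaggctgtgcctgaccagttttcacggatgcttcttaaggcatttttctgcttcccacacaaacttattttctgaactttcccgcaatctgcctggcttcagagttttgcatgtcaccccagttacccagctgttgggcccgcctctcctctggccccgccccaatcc
Chst5: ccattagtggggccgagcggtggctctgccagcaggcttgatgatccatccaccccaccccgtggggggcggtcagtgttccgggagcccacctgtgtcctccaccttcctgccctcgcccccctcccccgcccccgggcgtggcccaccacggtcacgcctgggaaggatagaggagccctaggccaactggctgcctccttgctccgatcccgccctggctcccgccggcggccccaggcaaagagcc
Chst3: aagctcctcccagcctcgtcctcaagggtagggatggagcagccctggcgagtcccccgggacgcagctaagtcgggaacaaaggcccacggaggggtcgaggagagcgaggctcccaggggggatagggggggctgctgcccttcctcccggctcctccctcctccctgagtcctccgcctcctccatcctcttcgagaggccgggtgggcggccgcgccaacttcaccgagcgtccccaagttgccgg
B3galt2: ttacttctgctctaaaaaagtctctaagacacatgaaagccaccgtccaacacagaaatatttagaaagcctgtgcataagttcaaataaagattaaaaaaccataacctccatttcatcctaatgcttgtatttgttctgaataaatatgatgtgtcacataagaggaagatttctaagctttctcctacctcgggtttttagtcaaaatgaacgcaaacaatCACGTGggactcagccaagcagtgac

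RefSeq promoters were at hand for 64 of the 85 members. An E-box, whose letters read the same on both strands, lay in the 250 bases before a start of 6 of these 64 genes (9.38%), against 1854 of 27025 genes (6.86%). The 6 were B3galt2, B3galt5, Ext2, Extl2, Hs3st3a1 and St6galnac3. A D-box, searched as TTATGTAA or TTACGTAA on both strands, was found before 1 member, Galnt13 (1.56%), against 296 of all genes (1.10%). These matches describe the letters and say nothing of binding. Fuom, Chst5 and Chst3 had no match in this window.

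The members ranged from 0.162 CPM for Galnt16 to 30.0 CPM for Ndst1 as means over the 6 libraries, with a median of 2.65 CPM over the 85. Ndst1, which removes acetyl groups from heparan and puts sulfate in their place, was at 27.9, 28.1 and 34.7 CPM in CT1 replicates 1, 2 and 3, and at 31.2, 29.4 and 28.7 CPM in CT23 replicates 1, 2 and 3. The times overlapped fully for this gene. St6galnac1, which adds sialic acid to the first sugar of O-glycans, came next at a mean of 17.0 CPM. Mgat4a and Mgat4b, which add a branch to N-glycans, followed at 15.7 and 13.9 CPM, with St3gal1, a sialyltransferase of O-glycans, between them at 15.3 CPM. B4galt1, the main galactosyltransferase of N-glycan branches, was at 13.5 CPM. Mgat4a, St3gal1, Mgat4b and B4galt1 overlapped in level between libraries, with SDs of 0.558 to 2.79 CPM within a time. In the plot of member levels by role, Ndst1 alone lies apart: its lowest library, at 27.9 CPM, was above the highest library of St6galnac1, at 23.7 CPM. Of the 85 members, 65 had a mean of at least 1 CPM and entered the fit of all genes, and 20 lay below.

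**Figure D1:**
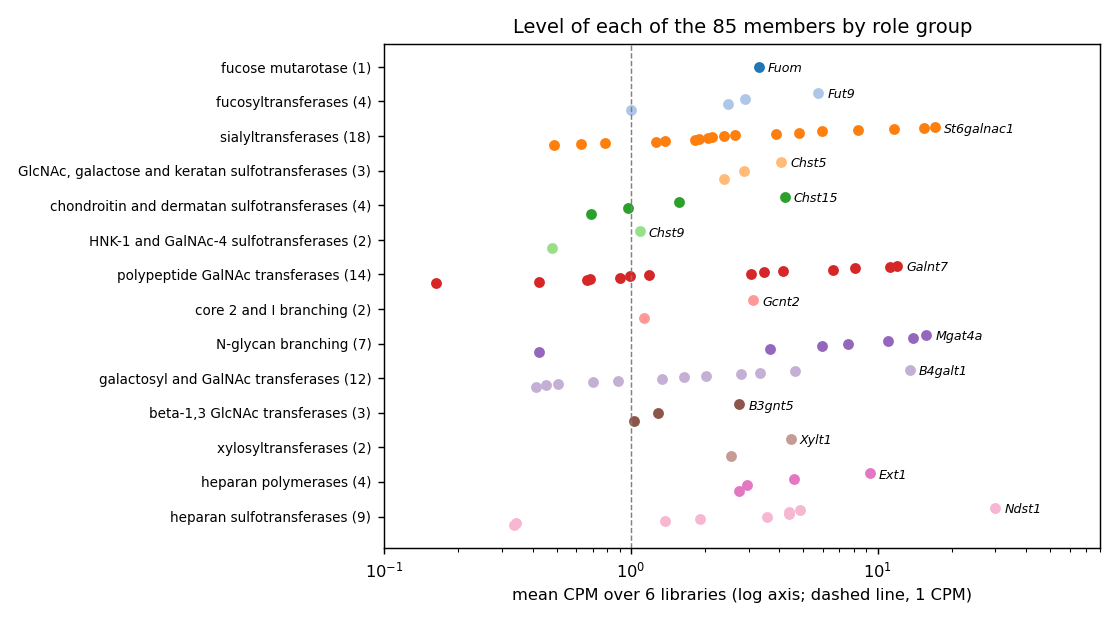
Mean CPM over the 6 libraries (log axis) of each of the 85 members, in rows by role group with the number of members in brackets and the highest member named. Ndst1 (30.0 CPM) lies farthest right, and 20 members lie left of the dashed line at 1 CPM.

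The study set CT1 against CT23 to ask how RPE transcripts differ between circadian times around subjective dawn. Fuom and Chst5 had the highest ratios of mean CPM at CT1 to mean CPM at CT23 of all members, 2.32 and 2.36. St6galnac1, St8sia6, Ext2 and St3gal6 were also higher in all 3 CT1 libraries than in any CT23 library. The 8 members lower in all 3 CT1 libraries were Chst3, Galnt13, B3galt2, Hs3st3b1, Ext1, Xylt1, Hs2st1 and Fut2. The other 71 members overlapped between the times. The 6 higher members were 7.06% of the 85, against 10.7% of all 14008 entries, and the 8 lower ones were 9.41%, against 15.4%. With crystallin reads taken out of the library totals, Fuom, Chst5 and St6galnac1 were the 3 members still higher without overlap (background 3.59%), while Ext2, St3gal6 and St8sia6 overlapped. The 8 lower members stayed lower there, and 8 that had overlapped joined them, 16 in all (background 23.3%).

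In the fit of all genes by limma, which tests a linear model on log2(CPM + 1) at a Benjamini-Hochberg adjusted p of 0.05, 0 of the 65 members passed, against a background of 0% of 11342 genes. At an unadjusted limma p under 0.05 there were 5 members higher (7.69%, against 9.39% of all genes) and 4 lower (6.15%, against 12.4%). With crystallin reads out of the totals the balance turned, to 3 members higher (4.62%, against 2.85%) and 10 lower (15.4%, against 20.8%). The edgeR quasi-likelihood test and limma-voom on the recovered reads called 0 members, against 0% of all genes for both. Each had 9 of 65 members at an unadjusted p under 0.05. Over all 11342 genes there were 2464 by edgeR and 2492 by limma-voom at that unadjusted p. DESeq2 called Chst5 and St6galnac1, both higher, against 1.17% of all genes called and 0.467% called higher. It gave no adjusted p to 37 of the 65 members, Fuom among them, and to 5717 of the 11342 genes. These shares count the genes without an adjusted p as not called. Without crystallin reads in the totals limma called Fuom and Chst5, both higher, against 3.17% of all genes called and 0.0617% called higher. Among genes averaging 5 CPM or more it called 0 of 18 members, against 2.07% of all genes and 0.318% higher. Fuom and Chst5, with means of 3.29 and 4.08 CPM, were not among the 18 and so were not tested there. The median log2 fold (CT1 minus CT23) of the 65 members was 0.026, against -0.014 over all genes, with 37 members above 0 and 28 below. The median was -0.13 without crystallin reads in the totals, against -0.17 over all genes, with 20 members above 0 and 45 below. Over all 85 members without the filter the median was 0.010. All 85 members summed to 363, 356 and 360 CPM in CT1 replicates 1, 2 and 3 and to 323, 346 and 347 CPM in CT23 replicates 1, 2 and 3. These sums did not overlap. With crystallin reads out of the totals they did, and the direction of the means turned, at 364, 361 and 367 CPM in CT1 replicates 1, 2 and 3 and 402, 422 and 355 CPM in CT23 replicates 1, 2 and 3. Crystallin reads were 0.233% to 1.93% of the totals at CT1 and 19.8%, 18.0% and 2.34% in CT23 replicates 1, 2 and 3. Taking them out of the totals thus mostly raises CT23 replicates 1 and 2. TMM factors, which scale libraries by the bulk of their genes, lay between 0.969 and 1.03 on the full totals. With CPM divided by them the median log2 fold was 0.047 over the members and 0.0035 over all genes. Which scaling is closer to the RNA of the tissue was not tested.

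**Figure D2:**
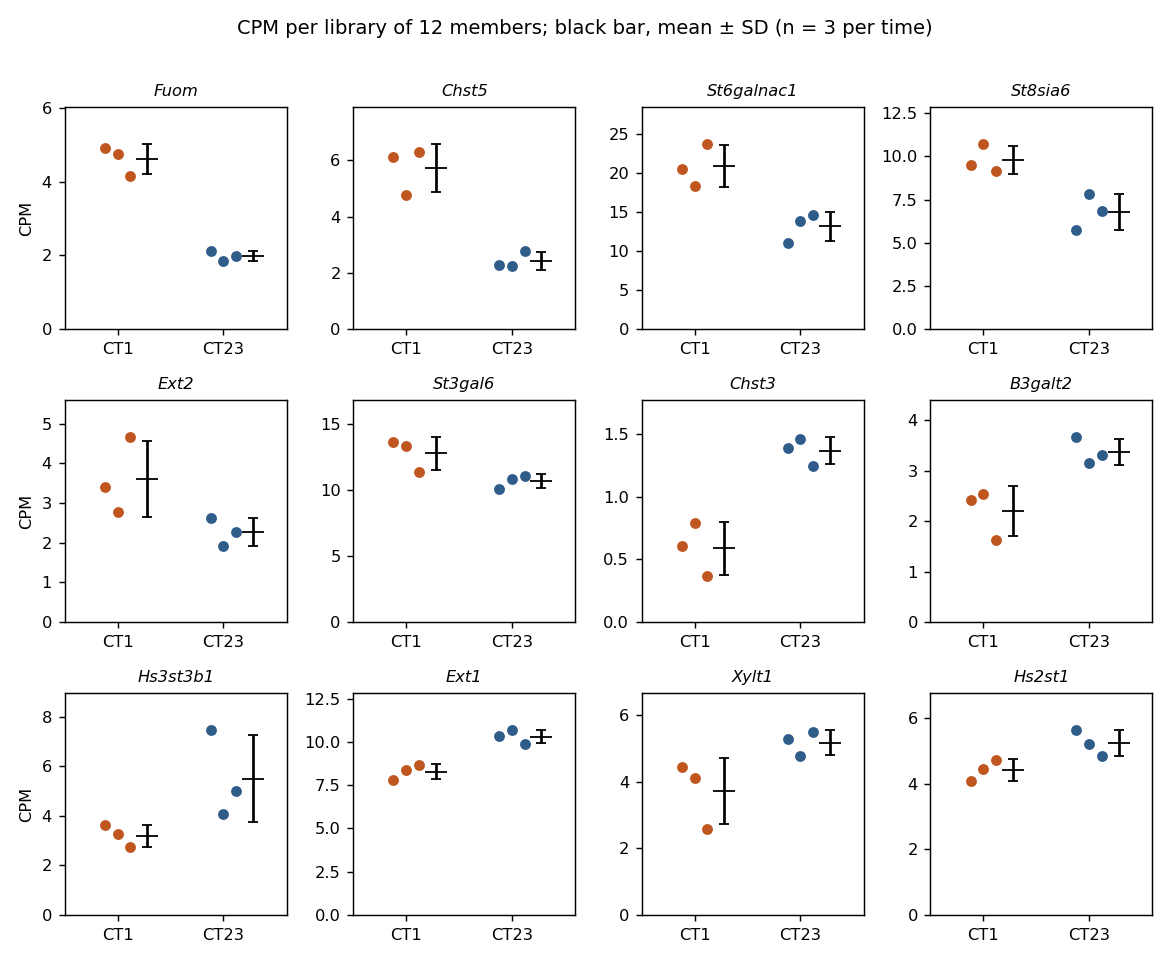
CPM per library (vertical axis, from 0) of 12 members at CT1 (left, orange) and CT23 (right, blue), with the mean ± SD of 3 libraries as a black bar. As ratios of means, Chst5 (2.36) and Fuom (2.32) stand highest above CT23, and Chst3 (0.431) lowest below it.

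Fuom encodes fucose mutarotase, which interconverts the ring forms of fucose so that the sugar can enter the salvage route to GDP-fucose. The protein-coding gene spans 140096770 to 140102441 of chromosome 7 (build mm10) on the minus strand. Its level was 4.91, 4.76 and 4.15 CPM in CT1 replicates 1, 2 and 3, and 2.12, 1.84 and 1.98 CPM in CT23 replicates 1, 2 and 3. Every CT1 library lay at least at the level of 4.15 CPM, and no CT23 library passed 2.12 CPM. The means were 4.60 ± 0.404 CPM at CT1 and 1.98 ± 0.140 CPM at CT23 (SD, n = 3 each), a ratio of 2.32 and a log2 fold of 0.91 (SE 0.117) on the log2(CPM + 1) scale, which understates the change of low genes. These values rest on 181 reads over the CT1 libraries and 80 reads over the CT23 libraries. Prap1, on the opposite strand, covers the 3′ end of Fuom, and no source used here states whether reads were counted by strand. Over the alternatives the log2 fold lay between 0.78 and 1.25.

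Other genes of fucose supply and use, of which 10 were measured and 9 entered the fit, went both ways: 0 passed, 4 were above 0 and 5 below, with a median log2 fold of -0.11. Fuca1, the lysosomal fucosidase that frees fucose from old glycans, was at 12.2, 11.3 and 12.4 CPM in CT1 replicates 1, 2 and 3 and at 9.01, 8.91 and 9.61 CPM in CT23 replicates 1, 2 and 3. The times did not overlap (log2 fold 0.35, SE 0.0913). Gmds, the dehydratase that opens the route from GDP-mannose to GDP-fucose, averaged 2.26 ± 0.423 CPM at CT1 and 1.46 ± 0.0723 CPM at CT23 (SD, n = 3 each). Fuk, the fucokinase that acts after the mutarotase in salvage, was lower, at 1.47 ± 0.0588 CPM at CT1 and 1.88 ± 0.0357 CPM at CT23. Pofut2, which puts fucose directly on proteins, was lower as well, at 4.74 ± 0.400 CPM at CT1 and 5.73 ± 0.440 CPM at CT23. B3glct, which adds glucose to the fucose placed by Pofut2, was at 34.2 ± 2.02 CPM at CT1 and 25.3 ± 1.34 CPM at CT23 (log2 fold 0.42, SE 0.0919).

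The 4 measured fucosyltransferases stayed close between the times, with a median log2 fold of -0.058. Fut9, which makes the Lewis x structure, was the most abundant and averaged 6.19 ± 0.478 CPM at CT1 and 5.30 ± 0.712 CPM at CT23, with overlapping libraries. Fut2, which adds fucose to galactose at chain ends, was at 0.906, 0.872 and 0.740 CPM in CT1 replicates 1, 2 and 3 and at 1.17, 1.15 and 1.17 CPM in CT23 replicates 1, 2 and 3. The groups did not overlap, although these levels come from only 33 and 47 reads. Fut8 and Fut11 overlapped between the times.

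Chst5 encodes a sulfotransferase that acts on N-acetylglucosamine and makes the keratan sulfate of the mouse cornea. The protein-coding gene spans 111889136 to 111910447 of chromosome 8 on the minus strand. Its level was 6.12, 4.76 and 6.29 CPM in CT1 replicates 1, 2 and 3, and 2.27, 2.23 and 2.79 CPM in CT23 replicates 1, 2 and 3. The lowest CT1 library lay well above the highest CT23 library. The means were 5.72 ± 0.841 CPM at CT1 and 2.43 ± 0.311 CPM at CT23 (SD, n = 3 each), a ratio of 2.36 and a log2 fold of 0.97 (SE 0.137), from 226 and 98 reads. Over the alternatives the fold lay between 0.82 and 1.27. Chst1, the galactose sulfotransferase of keratan sulfate, was at 3.07 ± 0.277 CPM at CT1 and 2.71 ± 0.481 CPM at CT23. Chst2, another N-acetylglucosamine sulfotransferase, was at 2.43 ± 0.600 CPM at CT1 and 2.33 ± 0.512 CPM at CT23. Both overlapped between the times, so Chst5 made most of the gap between the sums of these 3 genes, 10.6 to 11.7 CPM at CT1 and 7.30 to 7.77 CPM at CT23.

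Cornea markers stood beside Chst5 as follows. Kera, the core protein keratocan that carries keratan sulfate in the corneal stroma, was at 2.04, 1.43 and 2.96 CPM in CT1 replicates 1, 2 and 3 and at 0.586, 1.38 and 1.61 CPM in CT23 replicates 1, 2 and 3, with overlap. Of the 5 cornea stroma markers 4 were higher, with sums of 621 to 661 CPM at CT1 and 499 to 549 CPM at CT23. These sums use the full totals, crystallin reads included. Ptgds made up most of them, at 447 to 538 CPM at CT1 and 389 to 430 CPM at CT23. The sums thus mainly follow that 1 gene, and whether its reads came from cornea was not tested. Of the 5 markers Ptgds alone was higher without overlap, and 3 overlapped. Aldh1a1 went the other way without overlap, at 22.6 ± 0.694 CPM at CT1 and 29.2 ± 3.63 CPM at CT23. The part of such cells in the Chst5 values was not tested. None of those 5 was at 0 in any library. The surface epithelium sums were 2043, 1277 and 1864 CPM in CT1 replicates 1, 2 and 3 and 746, 1094 and 1559 CPM in CT23 replicates 1, 2 and 3. Among the CT1 libraries replicate 2 was lowest in both this sum and Chst5, and among the CT23 libraries replicate 3 was highest in both. The other ranks differed. At CT1 the sum was highest in replicate 1 and Chst5 in replicate 3. At CT23 the sum was lowest in replicate 1 and Chst5 in replicate 2. The part of these cells in the Chst5 values was not tested.

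Sulfotransferases of chondroitin and dermatan sulfate went different ways. Chst3, which sulfates chondroitin, lay just under the filter of 1 CPM with a mean of 0.978 CPM and so was not fitted. Its values were 0.604, 0.793 and 0.370 CPM in CT1 replicates 1, 2 and 3 and 1.39, 1.46 and 1.25 CPM in CT23 replicates 1, 2 and 3. No CT1 library reached the CT23 libraries, and the ratio of means was 0.431, from 23 and 55 reads. Chst11, which sulfates another position of chondroitin, averaged 1.94 ± 0.322 CPM at CT1 and 1.19 ± 0.573 CPM at CT23, with overlap through CT23 replicate 1 at 1.83 CPM. Chst15 was at 5.44, 2.62 and 5.11 CPM in CT1 replicates 1, 2 and 3 and at 2.64, 3.30 and 6.09 CPM in CT23 replicates 1, 2 and 3, so libraries of one time differed more than the times did. In the annotation Fgfr2, on the same strand and also measured, covers the 3′ end of Chst15. Chst9, which sulfates N-acetylgalactosamine at chain ends, was at 1.24 ± 0.322 CPM at CT1 and 0.939 ± 0.217 CPM at CT23. Over all fitted genes 47.8% were above 0, with a median log2 fold of -0.014. Genes of sulfate donor supply and sulfatases, 15 of 17 measured and 12 fitted, had 9 above 0 and 3 below, with 0 passing and a median log2 fold of 0.09. Among them Sumf1, which activates sulfatases, was at 4.38 ± 0.459 CPM at CT1 and 2.91 ± 0.296 CPM at CT23, and Slc26a2, a sulfate transporter, at 6.86 ± 0.494 CPM at CT1 and 8.42 ± 0.389 CPM at CT23.

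Sialyltransferases formed the largest role group, with 18 members, 15 of them fitted. Their sums were 88.2, 90.1 and 91.8 CPM in CT1 replicates 1, 2 and 3 and 74.1, 83.3 and 79.3 CPM in CT23 replicates 1, 2 and 3, without overlap. They overlapped with crystallin reads out of the totals, at 88.4, 91.4 and 93.6 CPM at CT1 and 92.4, 101.5 and 81.2 CPM at CT23, and the means were 91.2 and 91.7 CPM. St6galnac1 (minus strand of chromosome 11, 116765025 to 116775507) made up most of the gap between the means of these sums, with 20.5, 18.4 and 23.7 CPM in CT1 replicates 1, 2 and 3 and 10.99, 13.9 and 14.6 CPM in CT23 replicates 1, 2 and 3. All CT1 libraries were above all CT23 libraries, and the log2 fold was 0.63 (SE 0.135). St8sia6, which extends sialic acid with more sialic acid on O-glycans (minus strand of chromosome 2, 13651021 to 13794064), was at 9.52, 10.7 and 9.18 CPM in CT1 replicates 1, 2 and 3. In CT23 replicates 1, 2 and 3 it was at 5.71, 7.84 and 6.82 CPM, again without overlap (log2 fold 0.48, SE 0.126). Its fold was 0.31, with overlap, once crystallin reads were out of the totals. St3gal6, which caps galactose, was at 13.6, 13.3 and 11.3 CPM in CT1 replicates 1, 2 and 3 and at 10.0, 10.8 and 11.1 CPM in CT23 replicates 1, 2 and 3, a narrow gap (log2 fold 0.24, SE 0.103). On that same scaling the St3gal6 fold was 0.057, with overlap. Dcbld2, on the opposite strand, covers the 3′ end of St3gal6.

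Not all sialyltransferases were higher at CT1: 9 of the 15 were above 0 and 6 below. The ganglioside enzyme St8sia1, which makes GD3, was at 1.71 ± 0.673 CPM at CT1 and 2.57 ± 0.801 CPM at CT23, and St8sia3, a sialyltransferase of neural glycans, at 1.07 ± 0.206 CPM at CT1 and 1.47 ± 0.266 CPM at CT23. Both overlapped. St6gal1, which caps N-glycans, was at 5.34 ± 1.13 CPM at CT1 and 6.57 ± 1.41 CPM at CT23. St3gal1 was at 15.4 ± 0.746 CPM at CT1 and 15.3 ± 0.558 CPM at CT23. Genes of sialic acid supply and removal, 5 of 10 measured, had 4 above 0 and 1 below, with 0 passing and a median log2 fold of 0.18. Over all fitted genes 47.8% were above 0, with a median of -0.014. Cmas, which activates sialic acid, had a log2 fold of 0.28, with overlap. Nans, an enzyme of sialic acid synthesis, was at 3.06 ± 0.668 CPM at CT1 and 2.26 ± 0.468 CPM at CT23, and Gne, which starts it, at 3.56 ± 0.133 CPM at CT1 and 3.03 ± 0.279 CPM at CT23.

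**Figure D3:**
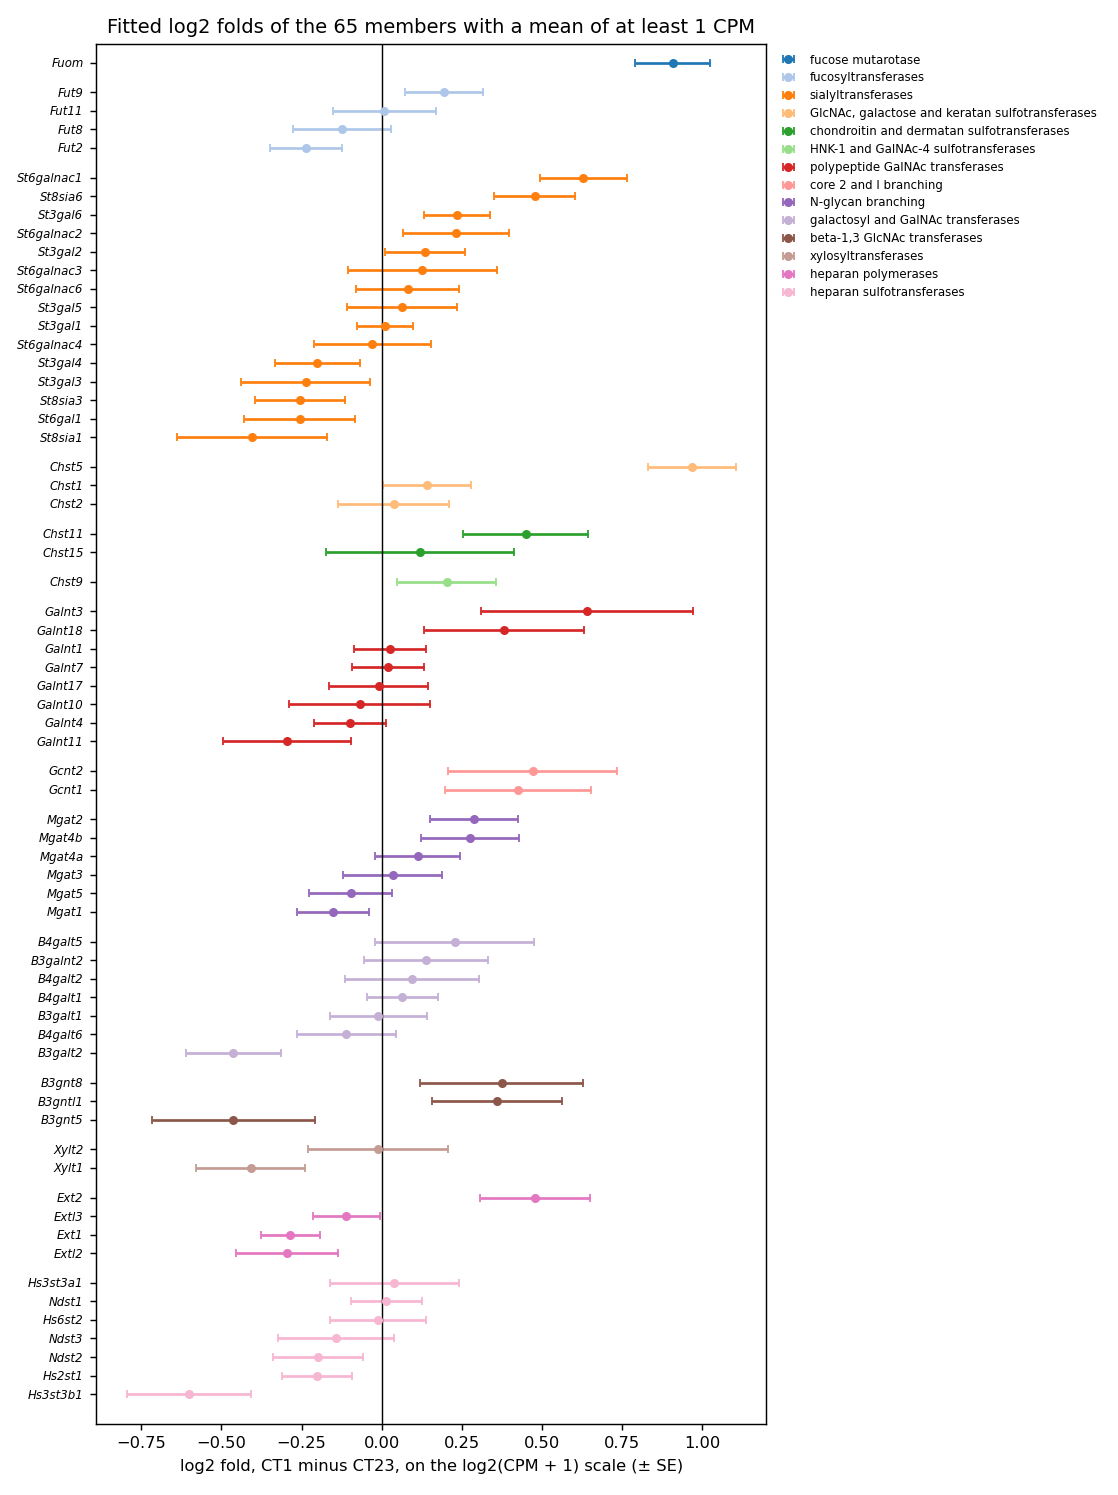
Log2 fold of CT1 minus CT23 on the log2(CPM + 1) scale (horizontal axis, bars ± SE from the fit of all genes) for the 65 fitted members, in rows coloured by role group. Chst5 (0.97) and Fuom (0.91) lie farthest right, Hs3st3b1 (-0.60) farthest left, and most bars of the heparan groups at the bottom lie left of 0.

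The polypeptide GalNAc transferases start O-glycans, and their 14 members had 8 fitted, 4 above and 4 below 0. Galnt7, Galnt1 and Galnt10 were at similar levels at both times, with Galnt7 at 12.1 ± 0.756 CPM at CT1 and 11.9 ± 1.44 CPM at CT23. Galnt3 varied widely between libraries, at 12.3, 7.06 and 10.2 CPM in CT1 replicates 1, 2 and 3 and at 3.08, 6.38 and 9.53 CPM in CT23 replicates 1, 2 and 3. Its libraries overlapped (log2 fold 0.64, SE 0.331), and without CT23 replicates 1 and 2 the fold was 0.014. Galnt3 put the 6 libraries in the same order as the sum of the surface epithelium markers, from CT23 replicate 1 at the bottom to CT1 replicate 1 at the top. Galnt3 was the 1 member of 85 with that order (1.18%), against 141 of 14008 entries (1.01%), and the order was noticed after the values were seen. Galnt13 was lower at CT1, at 0.435 ± 0.130 CPM at CT1 and 0.892 ± 0.259 CPM at CT23, from 17 and 36 reads. The other fitted members spread to both sides, with Galnt18 at 4.76 ± 0.925 CPM at CT1 and 3.55 ± 1.48 CPM at CT23 and Galnt11 at 2.66 ± 0.834 CPM at CT1 and 3.45 ± 0.706 CPM at CT23, both with overlap. Galnt12 was at 0.896 ± 0.299 CPM at CT1 and 0.474 ± 0.128 CPM at CT23, with overlap.

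**Figure D4:**
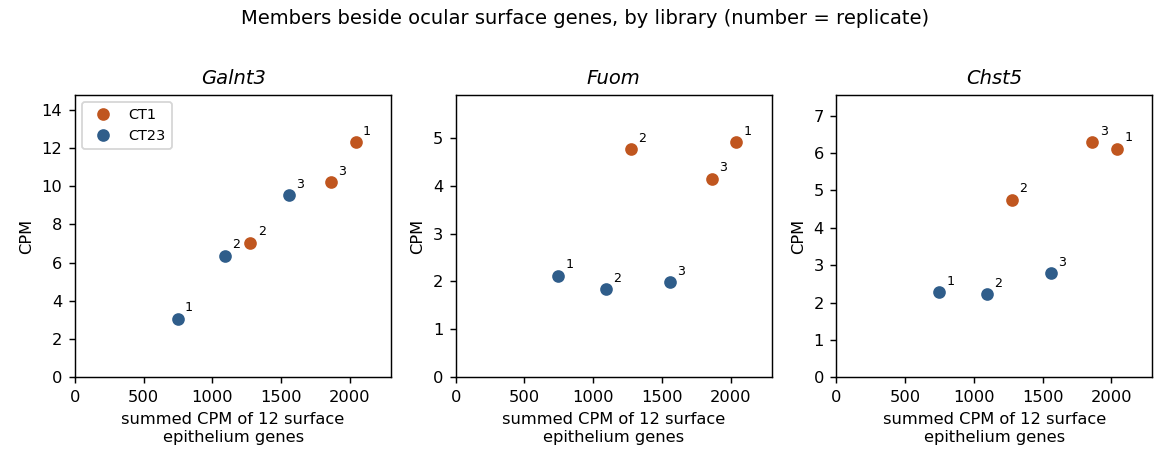
CPM of Galnt3, Fuom and Chst5 (vertical axes) against the summed CPM of 12 surface epithelium genes (horizontal axis), a point per library with its replicate number, CT1 orange and CT23 blue. Galnt3 climbs with the sum across both times, from 3.08 to 12.3 CPM, an order noticed after the values were seen. Every CT1 point of Fuom and Chst5 lies above every CT23 point, but these genes were chosen by this same comparison. The part of surface cells in the values of Galnt3, Fuom and Chst5 was not tested.

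Branching and chain extension enzymes were mostly close between the times. Gcnt1, which makes the core 2 branch of O-glycans, averaged 1.40 ± 0.128 CPM at CT1 and 0.851 ± 0.564 CPM at CT23, where CT23 replicate 1 held 0.220 CPM, the level of 3 reads. Gcnt2, which branches lactosamine chains, was at 3.73 ± 0.850 CPM at CT1 and 2.54 ± 1.42 CPM at CT23, with overlap. Of the N-glycan branching genes, Mgat2, which starts the other arm of complex N-glycans, was at 4.15, 4.36 and 3.85 CPM in CT1 replicates 1, 2 and 3 and at 3.96, 2.84 and 2.86 CPM in CT23 replicates 1, 2 and 3. It overlapped through CT23 replicate 1 alone. Mgat4b was at 15.2 ± 0.944 CPM at CT1 and 12.5 ± 2.79 CPM at CT23, and Mgat4a at 16.3 ± 1.63 CPM at CT1 and 15.1 ± 2.50 CPM at CT23. Mgat1, which opens the route to complex N-glycans, was at 7.17 ± 0.908 CPM at CT1 and 8.04 ± 0.439 CPM at CT23, and Mgat3, which adds the bisecting sugar, at 11.2 ± 2.13 CPM at CT1 and 10.8 ± 1.74 CPM at CT23. B4galt1 was at 13.8 ± 1.22 CPM at CT1 and 13.2 ± 1.46 CPM at CT23.

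B3galt2, which adds galactose to N-acetylglucosamine and has the E-box shown above (GENCODE span, plus strand of chromosome 1, 143640664 to 143654614), was at 2.42, 2.54 and 1.63 CPM in CT1 replicates 1, 2 and 3 and at 3.66, 3.15 and 3.30 CPM in CT23 replicates 1, 2 and 3. The groups did not overlap (log2 fold -0.46, SE 0.147). Cdc73, on the opposite strand and also in the table, covers its 3′ end. B3gnt5, which starts the lacto-series of glycolipids, was at 2.72, 2.22 and 1.41 CPM in CT1 replicates 1, 2 and 3 and at 4.98, 2.15 and 3.01 CPM in CT23 replicates 1, 2 and 3. CT23 replicate 1 set most of that difference, since the log2 fold of -0.46 became -0.21 without it.

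Genes of heparan sulfate were lower at CT1 in 10 of 13 fitted members, counting chain initiation, polymerization and sulfation together. Over all genes 52.2% were lower. None of the 13 passed. At an unadjusted limma p under 0.05 there were 3 lower (23.1%, against 12.4% of all genes) and 1 higher (7.69%, against 9.39%). The median log2 fold of the 13 was -0.14, against -0.014 over all genes. With crystallin reads out of the totals 12 of the 13 were lower, against 72.7% of all genes. The median was then -0.27, against -0.17 over all genes. Xylt1, which places the first xylose on the core protein of heparan and chondroitin chains alike, was at 4.46, 4.12 and 2.59 CPM in CT1 replicates 1, 2 and 3 and at 5.27, 4.76 and 5.50 CPM in CT23 replicates 1, 2 and 3, without overlap (log2 fold -0.41, SE 0.169). Without CT1 replicate 3 the Xylt1 fold was -0.22. The polymerase genes Ext1 and Ext2, whose products work as a complex, lay on opposite sides. Ext1 was at 7.78, 8.40 and 8.66 CPM in CT1 replicates 1, 2 and 3 and at 10.3, 10.7 and 9.90 CPM in CT23 replicates 1, 2 and 3 (log2 fold -0.28, SE 0.0924), and its fold was -0.46 with crystallin reads out of the totals. Ext2 was at 3.40, 2.78 and 4.66 CPM in CT1 replicates 1, 2 and 3 and at 2.64, 1.92 and 2.27 CPM in CT23 replicates 1, 2 and 3 (log2 fold 0.48, SE 0.173). Neither overlapped between the times, though Ext2 did with crystallin reads out of the totals, and Alx4 covers the 3′ end of Ext2 on the opposite strand. Extl2, a related transferase, was at 2.37 ± 0.494 CPM at CT1 and 3.14 ± 0.610 CPM at CT23, with overlap.

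Of the heparan sulfotransferases, Hs3st3b1, which adds a rare sulfate late in synthesis, was at 3.63, 3.25 and 2.74 CPM in CT1 replicates 1, 2 and 3 and at 7.47, 4.07 and 4.99 CPM in CT23 replicates 1, 2 and 3. CT23 replicate 1 was far the highest, and without it the log2 fold of -0.60 (SE 0.194) was -0.40. Its close paralog Hs3st3a1 was at 4.48 ± 1.46 CPM at CT1 and 4.26 ± 0.855 CPM at CT23, and reads of the pair may be hard to assign. Ndst2, a relative of Ndst1, was at 1.70 ± 0.248 CPM at CT1 and 2.11 ± 0.367 CPM at CT23, with overlap. Hs2st1, which sulfates the uronic acid, was at 4.08, 4.44 and 4.74 CPM in CT1 replicates 1, 2 and 3 and at 5.64, 5.22 and 4.84 CPM in CT23 replicates 1, 2 and 3, separated by a narrow margin. Its log2 fold was -0.20, or -0.37 with crystallin reads out of the totals and -0.11 without CT23 replicates 1 and 2. The summed CPM of the heparan groups overlapped, at 69.6, 72.3 and 81.5 CPM in CT1 replicates 1, 2 and 3 and 85.1, 80.7 and 77.1 CPM in CT23 replicates 1, 2 and 3. CT1 replicate 3, where Ndst1 was highest, made that overlap. The rod sums given above were lower at CT1 too, and the part of rods in the lower members was not tested.

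**Figure D5:**
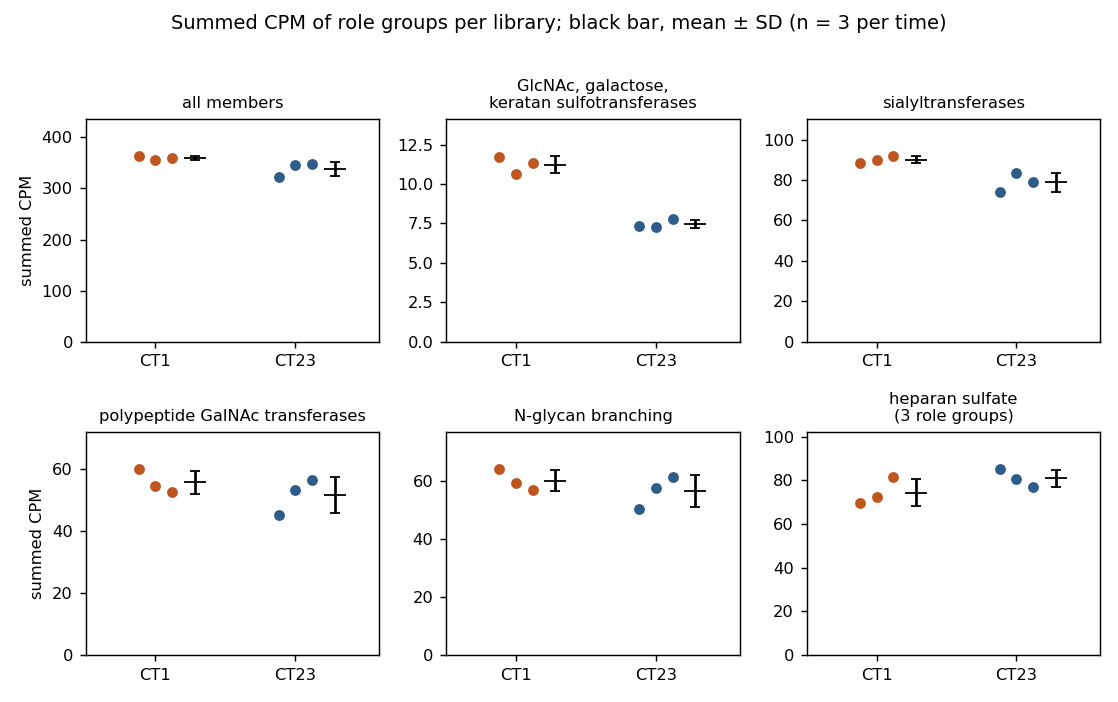
Summed CPM (vertical axes, from 0) of all 85 members and of 5 sets of role groups per library, at CT1 (left, orange) and CT23 (right, blue), with mean ± SD of 3 libraries as a black bar. The times do not overlap for all members, the GlcNAc, galactose and keratan sulfotransferases or the sialyltransferases (with crystallin reads out of the totals, all members and the sialyltransferases do), and overlap for the GalNAc transferases, N-glycan branching and heparan sulfate genes.

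Proteoglycan core proteins, onto which many of these enzymes build, were a list of 30, of which 22 were measured and fitted. None passed, 17 were above 0 and 5 below, and the median log2 fold was 0.23. Over all fitted genes 47.8% were above 0, with a median of -0.014. Dcn, Fmod and Lum of this list were also among the fibroblast and sclera markers, of which 10 of 12 were higher. The part of such cells in these values was not tested. Impg1 and Impg2, proteoglycans of the matrix around photoreceptors, were lower, with Impg2 at 7.18, 8.09 and 6.66 CPM in CT1 replicates 1, 2 and 3 and at 13.2, 10.4 and 9.83 CPM in CT23 replicates 1, 2 and 3. Impg1 had a log2 fold of -0.56 (SE 0.124). Bgn, a small proteoglycan of connective tissue, was higher, at 23.3, 21.6 and 42.3 CPM in CT1 replicates 1, 2 and 3 and 13.1, 17.7 and 17.1 CPM in CT23 replicates 1, 2 and 3, with CT1 replicate 3, the library richest in fibroblast markers, far above the rest. Nucleotide sugar supply genes, 22 of 26 measured and 20 fitted, had 15 above 0 and 5 below with a median log2 fold of 0.09. Those with the smallest p were Pmm2, an enzyme of mannose supply, at -0.34, Slc35d1, a Golgi and endoplasmic reticulum transporter of nucleotide sugars, at -0.27, and Slc35a3, which carries UDP-N-acetylglucosamine, at 0.25. The list of other chain enzymes, 19 of 23 measured and 15 fitted, had 6 above 0 and 9 below, with a median log2 fold of -0.07. Ogt, which puts single N-acetylglucosamine on proteins of the nucleus and cytosol, was at 11.2 ± 0.241 CPM at CT1 and 16.1 ± 2.35 CPM at CT23, and Csgalnact2, which starts chondroitin chains, at 2.73 ± 0.520 CPM at CT1 and 4.35 ± 0.731 CPM at CT23. In these lists too, 0 genes passed.

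Among the genes most like Fuom in pattern, by Pearson's r of log2(CPM + 1) over the 6 libraries, were Cysltr1, Anapc13, Sema3b and Siva1, with r between 0.994 and 0.999. Chst5 ranked 87 among the genes most like Fuom, with r = 0.94. For Chst5 the 5 most similar were Fuca1, Lvrn, Emd, Oxct1 and Wasf2, each with r over 0.99. The library values of Fuca1 given above thus followed those of Chst5 closely. With only 6 libraries in 2 groups, r over 0.9 was reached by 222 genes with Fuom and by 365 with Chst5. They were sought among the 11342 genes of the fit, and genes with r over 0.99 were not counted.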

How the data were processed

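RNA was measured in 3 CT1 and 3 CT23 libraries, grouped by the sample titles. Per the labels' protocols, the neural retina was peeled off, RPE cells were freed from the posterior eye by sonication, and libraries were made with a QuantSeq 3′ kit. The submitters' processing notes name mm10, Bowtie2 2.1.0, HTSeq and edgeR 3.24.1, without roles. Per the file headers, the authors deposited CPM for each library beside log2 folds and p-values. Their deposited log2 values matched log2 of mean CPM at CT1 over mean CPM at CT23 in all 14083 entries within 1e-06; the deposited fold and p-value were not used further. Dividing CPM by the worth of 1 read gave whole reads (within 0.01) for 100% of values, and so the totals. Entries that name no gene (75) were left out; they held 0.0432% to 0.102% of listed reads.

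CPM is no count, so limma 3.58.1 with a mean-variance trend was run on log2(CPM + 1) over the 11342 genes averaging 1 CPM or more, time being the only factor, two-sided. R 4.3.3, edgeR 4.0.16 and DESeq2 1.42.0 were used on the recovered reads as alternatives; edgeR's quasi-likelihood test called 0 genes, with 2464 at an unadjusted p under 0.05, against 0 and 2469 in limma. The fit was first tested on simulated data, in 3 draws with 200 genes changed 2-fold in each. It recovered 55.2% of these changes, and 5.16% of its calls were false. Members, lists and tests were chosen with earlier results of these data known. Named members are Fuom, the 10 with the smallest limma p in each direction, the 5 most abundant, the most abundant of each role group and some below the filter; of each pathway list, up to 3 with the smallest p are named (lists were matched by symbol only, and some hold both an older and a newer name of a gene, such as Fuk and Fcsk), and others, such as Fuk, Kera and St6gal1, after their values were seen. Coordinates are from GENCODE M21 (mm10), which matched 84 of 85 members. Opposite-strand genes also cover the 3′ ends of other named members, such as Gcnt2, Fut11, Mgat2 and St8sia1. Between libraries of a time, chi-square per gene was 5.77 to 106, above sampling noise, so none was counted as a copy. Of the genes most like Fuom in pattern, 1 is not reported here.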

Additional observations from a re-analysis of the deposited data

How the results depend on the processing

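No member passed in limma under other pseudocounts (0.5 and 0.25), no filter, TMM factors or any left-out library. None passed under a filter of 5 CPM either, which left Fuom and Chst5 untested. Over all genes limma called 98 among those averaging 5 CPM or more, 360 with crystallin reads out of the totals and 0 to 4 (without CT23 replicate 3) with each library left out; DESeq2 called 133. DESeq2 called 2 members, Chst5 and St6galnac1, and gave Fuom no adjusted p. With crystallin reads out of the totals limma called 2, Fuom and Chst5; there the median fold was -0.17 over all genes, against -0.014 with the full totals, and -0.13 over the members, on the log2 scale. The members' median was 0.066 in DESeq2, -0.014 without CT23 replicates 1 and 2 together, and -0.023 (without CT23 replicate 1) to 0.044 with each library left out; the cause was not tested. Of 30 named members, 24 kept the sign of their fold in every alternative that tested them; the exceptions were Ndst1, Mgat4a, St3gal1, Chst15, B4galt1 and Galnt7. The main fit did not treat the replicate numbers as pairs. Deviations of same-numbered libraries correlated at -0.25, 0.38 and -0.042, and 2 of 6 libraries correlated best with their own number. With 3 libraries at each time, these values cannot exclude pairing. With the number as a replicate block, 0 genes and 0 members passed. Genes near 1 CPM rest on few reads, so small differences in them were not detectable at this depth. Groups of 3 libraries were not tested for outlying samples.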
